A study of Mus musculus with 22 samples.

Results

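Granzymes and perforin are the proteins with which killer lymphocytes make target cells die, and their transcripts were followed through 11 lymphocyte populations sorted from mouse mammary tumours. The 10 genes were taken by symbol: Gzma, Gzmb, Gzmc, Gzmd, Gzme, Gzmf, Gzmg, Gzmk, Gzmm and Prf1, which encodes perforin. All 10 were found among the 37620 entries of the deposited count table. Every library came from pooled mammary tumours of female PyMT mice on the C57BL/6 strain, 20 to 24 weeks old, in which a viral oncogene active in the mammary gland gives rise to tumours. Each population had 2 libraries, 22 in all. The labels name the populations by surface markers or by short names, and carry no treatment and no animal without tumours. A first gating scheme gave TCRb+CD8a+NK1.1+, TCRb+CD8a-NK1.1+, TCR-NK1.1+, TCRb+CD8a+PD1+ and TCRb+CD8a+PD1-NK1.1- cells. A second gave TCRgd+ILTC1 and TCRab+ILTC1 cells (ILTC1 stands for type 1 innate-like T cells), ILC1l cells (innate lymphoid cells resembling type 1), cNK cells (natural killer cells of the conventional kind), TCRgd+NK1.1- cells and TCRb+CD8a+NK1.1- cells. NK1.1 is a receptor of natural killer cells, and PD1 is an inhibitory receptor of stimulated T cells.

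Granzymes are serine proteases stored with perforin in the secretory granules of cytotoxic T cells and natural killer cells. On contact with a target cell the granules are released, perforin opens pores in the target's membrane, and granzymes enter and cut proteins inside. Granzyme B cuts after aspartate and activates caspases, granzymes A and K cut after basic residues, and granzyme M cuts after methionine or leucine. Granzymes C to G form a group that is enlarged in rodents and whose substrates are less well known.

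On the GRCm38 assembly with GENCODE M21 genes, Gzme, Gzmd, Gzmg, Gzmf, Gzmc and Gzmb lie in this order on the minus strand of chromosome 14, within 144.6 kb from chr14:56117626 (end of Gzme) to chr14:56262260 (start of Gzmb). Gzma and Gzmk lie on chromosome 13, and Gzmm and Prf1 on chromosome 10. The counts were made on an older assembly, so these positions locate the genes only. The first 120 coding bases of the 6 genes on chromosome 14 are shown because their likeness bears on every count below. They come from the GENCODE transcripts, run 5′ to 3′, and capitals mark bases that differ from Gzmd.
Gzmb: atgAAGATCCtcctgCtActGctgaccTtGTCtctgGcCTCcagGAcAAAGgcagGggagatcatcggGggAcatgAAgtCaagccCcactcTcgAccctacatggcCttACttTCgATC
Gzmc: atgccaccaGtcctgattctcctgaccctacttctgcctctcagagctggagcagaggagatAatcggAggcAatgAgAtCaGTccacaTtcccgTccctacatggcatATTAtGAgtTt
Gzmd: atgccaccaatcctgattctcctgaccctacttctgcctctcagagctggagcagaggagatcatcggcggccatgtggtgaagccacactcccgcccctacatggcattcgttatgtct
Gzme: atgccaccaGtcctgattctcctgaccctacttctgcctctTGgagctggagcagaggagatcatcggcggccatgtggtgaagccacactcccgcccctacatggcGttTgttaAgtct
Gzmf: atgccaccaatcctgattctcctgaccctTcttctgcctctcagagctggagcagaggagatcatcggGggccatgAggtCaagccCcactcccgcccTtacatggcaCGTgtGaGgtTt
Gzmg: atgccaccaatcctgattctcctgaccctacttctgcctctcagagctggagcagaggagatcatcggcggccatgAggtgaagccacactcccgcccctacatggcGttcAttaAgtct
Gzmg differed from Gzmd at 4 of these bases, Gzme at 6, Gzmf at 12, Gzmc at 18 and Gzmb at 41. Over whole coding sequences, Gzmd and Gzme were identical at 94.76% of aligned bases, Gzme and Gzmg at 89.5%, and Gzmf was identical with Gzmd, Gzme and Gzmg at 84.68% to 87.08%. Gzmc stood further off, with 73.27% to 75.1% identity to Gzmd, Gzme, Gzmf and Gzmg and 76.56% to Gzmb. Of all 50-base windows of each transcript, 21.858% in Gzmd, 20.646% in Gzme, 19.767% in Gzmg, 7.356% in Gzmf and 4.142% in Gzmc occurred unchanged in a transcript of another gene. None did in Gzma, Gzmb, Gzmk, Gzmm or Prf1. A read from a shared window can be assigned to either gene or dropped, and no source used here states how HTSeq treated such reads. Single values of Gzmd, Gzme and Gzmg are therefore uncertain, and the sum of Gzmc to Gzmg was tested beside them.

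**Figure D1:**
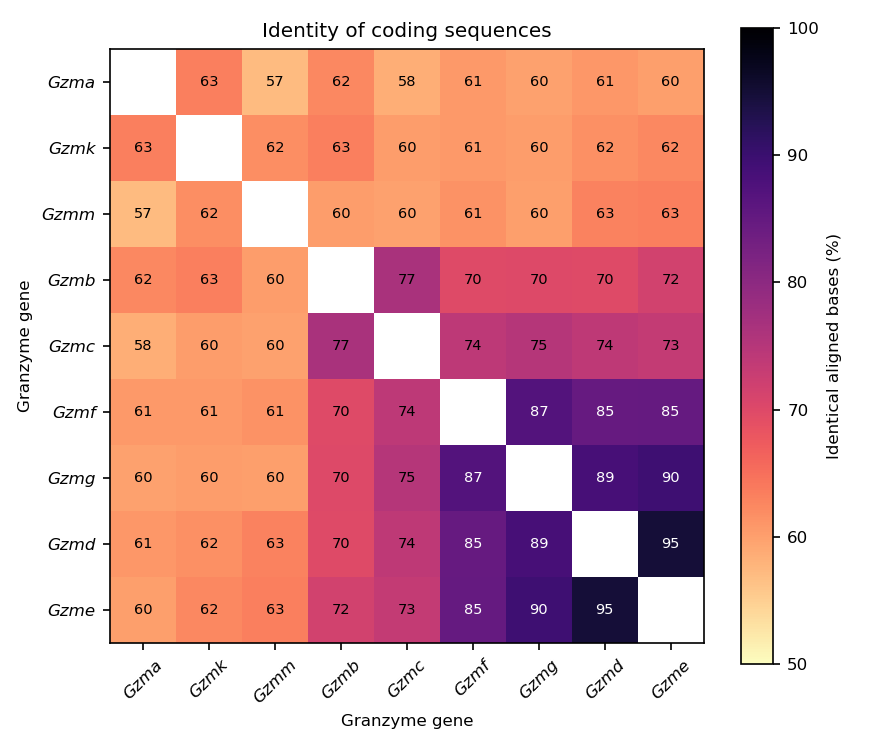
Identity of the coding sequences of the 9 granzyme genes, in percent of aligned bases, each cell a pair of genes. Gzmd, Gzme, Gzmf and Gzmg form a block at 84.68% to 94.76%, while Gzmc reaches 76.56% at most, with Gzmb.

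The 250 bases before the RefSeq start of Gzmb, Gzmc, Gzmd and Gzmf are shown because these neighbours share a locus and, as described below, differ in which cells hold their transcripts. They are RefSeq promoters on GRCm38.p6, minus strand, at chr14:56262335-56262584, chr14:56234658-56234907, chr14:56132594-56132843 and chr14:56211408-56211657, written 5′ to 3′ in the sense of the gene. Capitals mark matches on either strand to AACCACA (bound by RUNX factors), TGANTCA (AP-1) and TGACGTCA (cAMP response element, CRE), none of which overlap.
Gzmb: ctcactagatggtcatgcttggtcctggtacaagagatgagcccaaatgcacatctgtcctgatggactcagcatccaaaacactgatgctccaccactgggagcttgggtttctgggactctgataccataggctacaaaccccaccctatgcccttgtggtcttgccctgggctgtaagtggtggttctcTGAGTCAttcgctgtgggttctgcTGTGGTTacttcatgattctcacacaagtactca
Gzmc: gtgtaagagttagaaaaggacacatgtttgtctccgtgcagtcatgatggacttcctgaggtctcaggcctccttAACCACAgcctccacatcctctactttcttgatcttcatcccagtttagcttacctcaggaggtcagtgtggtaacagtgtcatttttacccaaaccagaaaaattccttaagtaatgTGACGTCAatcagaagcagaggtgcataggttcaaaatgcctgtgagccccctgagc
Gzmd: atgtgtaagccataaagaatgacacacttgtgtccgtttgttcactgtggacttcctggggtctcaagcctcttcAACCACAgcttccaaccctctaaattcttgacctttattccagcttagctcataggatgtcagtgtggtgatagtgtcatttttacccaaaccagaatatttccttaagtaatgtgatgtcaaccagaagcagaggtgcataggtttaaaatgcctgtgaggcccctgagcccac
Gzmf: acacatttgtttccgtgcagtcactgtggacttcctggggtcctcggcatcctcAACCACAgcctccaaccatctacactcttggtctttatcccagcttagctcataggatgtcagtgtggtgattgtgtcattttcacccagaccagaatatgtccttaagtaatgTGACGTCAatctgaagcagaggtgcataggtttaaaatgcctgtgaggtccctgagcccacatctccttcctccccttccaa
AACCACA stood in 7 of the 10 promoters, those of Gzma, Gzmb, Gzmc, Gzmd, Gzme, Gzmf and Gzmg, and in 4.407% of all 32536 mouse promoters of this length. In Gzmb it lay on the other strand, 34 to 28 bases before the start, and in Gzmc and Gzmd 175 to 169 bases before it. TGACGTCA stood in Gzmc, Gzmf and Gzmg and in 1.555% of all promoters, and TGANTCA in Gzmb alone of the 10 and in 6.728% of all. TTCNNNGAA, bound by STAT factors, matched Gzmm and 7.041% of all, while AGGTGTGA (T-box factors, 1.125%) and CCGGAAGT (ETS factors, 2.901%) matched none of the 10. The promoters of Gzmc to Gzmg were identical with each other at 84.43% to 95.58% of aligned bases, so their matches are not independent. A match describes these letters and is no evidence of binding.

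Libraries held 8696335 to 20602715 counts. Levels below are counts scaled to 1000000 per library (CPM) and adjusted by TMM factors over all 22 libraries, and 3 counts in a library equalled 0.146 to 0.345 unscaled CPM. The 9 granzyme genes together took 0.2006% to 2.1652% of all counts. Marker genes, as unscaled CPM, mostly followed the labels: Klrb1c, which encodes NK1.1, had 932.8 to 2428 CPM in the NK1.1+, ILTC1, ILC1l and cNK libraries and 0.781 to 94.8 CPM in the others. Cd3e, the gene of a CD3 chain that accompanies the T-cell receptor, had 88.4 and 451 CPM in ILC1l libraries and 180.3 and 455 CPM in TCR-NK1.1+ libraries. It had 0.609 and 5.78 CPM in cNK libraries and 560.2 to 1839 CPM in T-cell libraries. ILC1l and TCR-NK1.1+ libraries thus held T-cell transcripts that cNK libraries nearly lacked. The 20 myeloid markers summed to 19233 and 46625 CPM in TCRgd+NK1.1- libraries, against 184.8 to 3742 CPM elsewhere. The 16 epithelial markers summed to 5639 and 4339 CPM in TCR-NK1.1+ and 5455 and 1089 CPM in TCRb+CD8a-NK1.1+ libraries. They summed to 4489 and 2368 CPM in TCRgd+NK1.1- and 2351 and 4162 CPM in TCRb+CD8a+NK1.1- libraries, against 78.6 to 1290.0 CPM in the rest. Cdh1, a member of this list, made up 1236 of the 1290.0 CPM, in TCRgd+ILTC1 replicate 1. It had 514.1 and 635.9 CPM in TCRb+CD8a+NK1.1+ libraries, against 237.6 and 596.1 CPM in TCR-NK1.1+ libraries. Krt18, another member, had 3.94 and 4.92 CPM against 603.7 and 563.1 CPM in the same libraries. Mast cells also make granule proteases, and their 13 markers summed to 480.8 and 592.3 CPM in cNK libraries and 2.54 to 175.7 CPM elsewhere. Of these, Cma1 reached 484.1 CPM, in a cNK library, Kit 171.3 CPM and Hdc 23.7 CPM, while the other 10 reached at most 4.33 CPM and Mcpt1 and Mcpt2 had 0 counts throughout. In bulk samples, fewer cells of a type cannot be told apart from less RNA per cell.

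**Figure D2:**
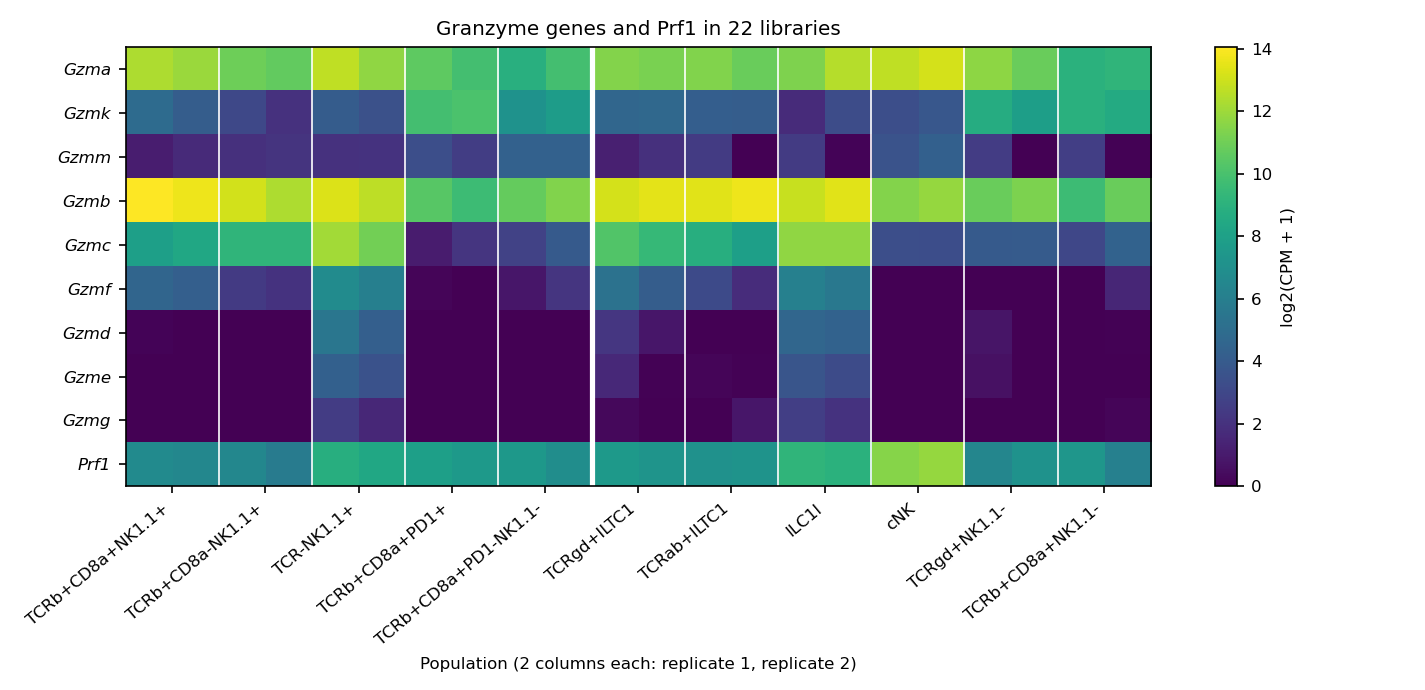
Level of each gene as log2(CPM + 1), rows for the 10 genes and 2 columns (replicates 1 and 2) for each population, the first gating scheme left of the thick line. Gzma and Gzmb are bright in every library, Gzmk is bright where NK1.1 is absent, Gzmc and Gzmf are brightest in TCR-NK1.1+ and ILC1l cells, and Prf1 is brightest in cNK cells.

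Gzmb separated the populations into 3 steps, the last 2 of them only narrowly apart. Its highest levels were in TCRb+CD8a+NK1.1+ cells, with 16983 and 13027 CPM, TCRab+ILTC1 cells, with 10866 and 13299.9 CPM, and TCRgd+ILTC1 cells, with 8929 and 11378 CPM. ILC1l cells had 7469.6 and 11049.8 CPM, TCR-NK1.1+ cells 10244 and 6393 CPM and TCRb+CD8a-NK1.1+ cells 8886 and 5101 CPM. Libraries of neighbours in this order overlapped throughout these 6 populations, and all 12 libraries lay above those of cNK cells, with 2737 and 3628 CPM. The 4 populations sorted without NK1.1 or with PD1 came last and overlapped along their order, with means of 2164 ± 672 CPM in TCRb+CD8a+PD1-NK1.1-, 2135 ± 449 in TCRgd+NK1.1-, 1307 ± 729 in TCRb+CD8a+NK1.1- and 1064 ± 392 in TCRb+CD8a+PD1+ cells (SD, n = 2 each). The lower cNK library, with 2737 CPM, lay just above TCRb+CD8a+PD1-NK1.1- replicate 2 of the first scheme, with 2639 CPM. Gzmb was thus an abundant transcript in every population, cNK and PD1+ T cells included.

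Gzma, whose protein cuts after basic residues, gave a slope rather than steps. It was highest in cNK cells, with 6722 and 8917 CPM, followed by TCR-NK1.1+ cells, with 6777 and 3348 CPM, TCRb+CD8a+NK1.1+ cells, with 5191 and 3909 CPM, and ILC1l cells, with 2535 and 5848 CPM. It was lowest in TCRb+CD8a+NK1.1- cells, with 511 and 578 CPM. Along the order of 11 populations the only neighbours whose libraries did not overlap were TCRb+CD8a-NK1.1+, with 1962 and 1665 CPM, and TCRb+CD8a+PD1+, with 1511 and 939 CPM. TCRgd+NK1.1- cells, with 3302 and 1859 CPM, overlapped TCRgd+ILTC1 cells, with 2767 and 2423 CPM.

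Gzmk ran the other way from Gzmb. It was highest in TCRb+CD8a+PD1+ cells, with 939.9 and 1062 CPM. TCRb+CD8a+NK1.1- cells had 475 and 384 CPM, TCRgd+NK1.1- cells 408 and 236 CPM, and TCRb+CD8a+PD1-NK1.1- cells 144 and 214 CPM. Every library of the other 7 populations had 29.2 CPM or less, down to TCRb+CD8a-NK1.1+ cells with 7.14 and 3.02 CPM and ILC1l cells with 2.30 and 8.59 CPM. The 4 populations with Gzmk were those sorted without NK1.1 or with PD1, and no library of the others reached them.

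Gzmc, the nearest of the 10 genes to Gzmb on chromosome 14, split the populations into a high and a low set. ILC1l cells had 3359.8 and 3409 CPM and TCR-NK1.1+ cells 4352 and 2149.7 CPM. TCRgd+ILTC1 cells followed with 1199.9 and 680.0 CPM, TCRb+CD8a-NK1.1+ cells with 576 and 593 CPM, TCRab+ILTC1 cells with 456 and 248 CPM and TCRb+CD8a+NK1.1+ cells with 242 and 329 CPM. The remaining 5 populations had 20.5 CPM or less in every library, cNK cells among them with 9.38 and 9.17 CPM, and TCRb+CD8a+PD1+ cells were lowest with 1.07 and 3.55 CPM. The lowest library of the first 6 populations, with 242 CPM, stood far above the highest of the last 5, with 20.5 CPM. Within the first 6, the neighbours whose libraries did not overlap were TCR-NK1.1+ and TCRgd+ILTC1, TCRgd+ILTC1 and TCRb+CD8a-NK1.1+, and TCRb+CD8a-NK1.1+ and TCRab+ILTC1.

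Gzmd, Gzme, Gzmf and Gzmg were far scarcer, and their highest levels were again in TCR-NK1.1+ and ILC1l cells. Gzmf had 107 and 65.9 CPM in TCR-NK1.1+ cells, 67.4 and 48.2 CPM in ILC1l cells, 37.7 and 16.9 CPM in TCRgd+ILTC1 cells and 22.8 and 18.4 CPM in TCRb+CD8a+NK1.1+ cells. Gzmd had 44.5 and 18.3 CPM in TCR-NK1.1+ cells and 23.9 and 20.5 CPM in ILC1l cells, Gzme 19.1 and 10.5 CPM and 12.2 and 8.27 CPM, and Gzmg 4.71 and 1.97 CPM and 5.07 and 3.21 CPM, in the same order of populations. Outside these 2 populations, Gzmd and Gzme stayed at or below 3.67 CPM and Gzmg at or below 0.820 CPM. Both cNK libraries had 0 counts of all 4 genes, where 3 counts in a library, the limit that a count of 0 allows, equalled at most 0.345 unscaled CPM. Gzmf also reached T cells: TCRb+CD8a+NK1.1+ cells had 262 and 211 counts of Gzmf but 1 and 0 counts of Gzmd and 0 of Gzme and Gzmg.

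Gzmm was the scarcest granzyme outside the cluster. TCRb+CD8a+PD1-NK1.1- cells had 19.4 and 19.8 CPM, cNK cells 11.1 and 19.0 CPM, and TCRb+CD8a+PD1+ cells 9.43 and 4.86 CPM. All other populations averaged 3.14 CPM or less. In 4 populations of the second scheme the replicates were far apart, with 58 and 1 counts in ILC1l, 89 and 0 in TCRab+ILTC1, 44 and 0 in TCRgd+NK1.1- and 77 and 1 in TCRb+CD8a+NK1.1- libraries, so Gzmm gives no stable order there.

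Prf1 stood apart in cNK cells, with 2850.2 and 3685 CPM. ILC1l cells came next with 576 and 499.7 CPM, then TCR-NK1.1+ cells with 453 and 330.1 CPM and TCRb+CD8a+PD1+ cells with 243 and 196 CPM, each below the one before without overlap. The other 7 populations ran from 171 ± 23.2 CPM in TCRgd+ILTC1 to 74.4 ± 23.8 CPM in TCRb+CD8a-NK1.1+ cells (SD, n = 2) with overlap at every neighbouring step. TCRb+CD8a+NK1.1+ cells, highest in Gzmb, were next to last in Prf1 with 106 and 88.8 CPM.

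**Figure D3:**
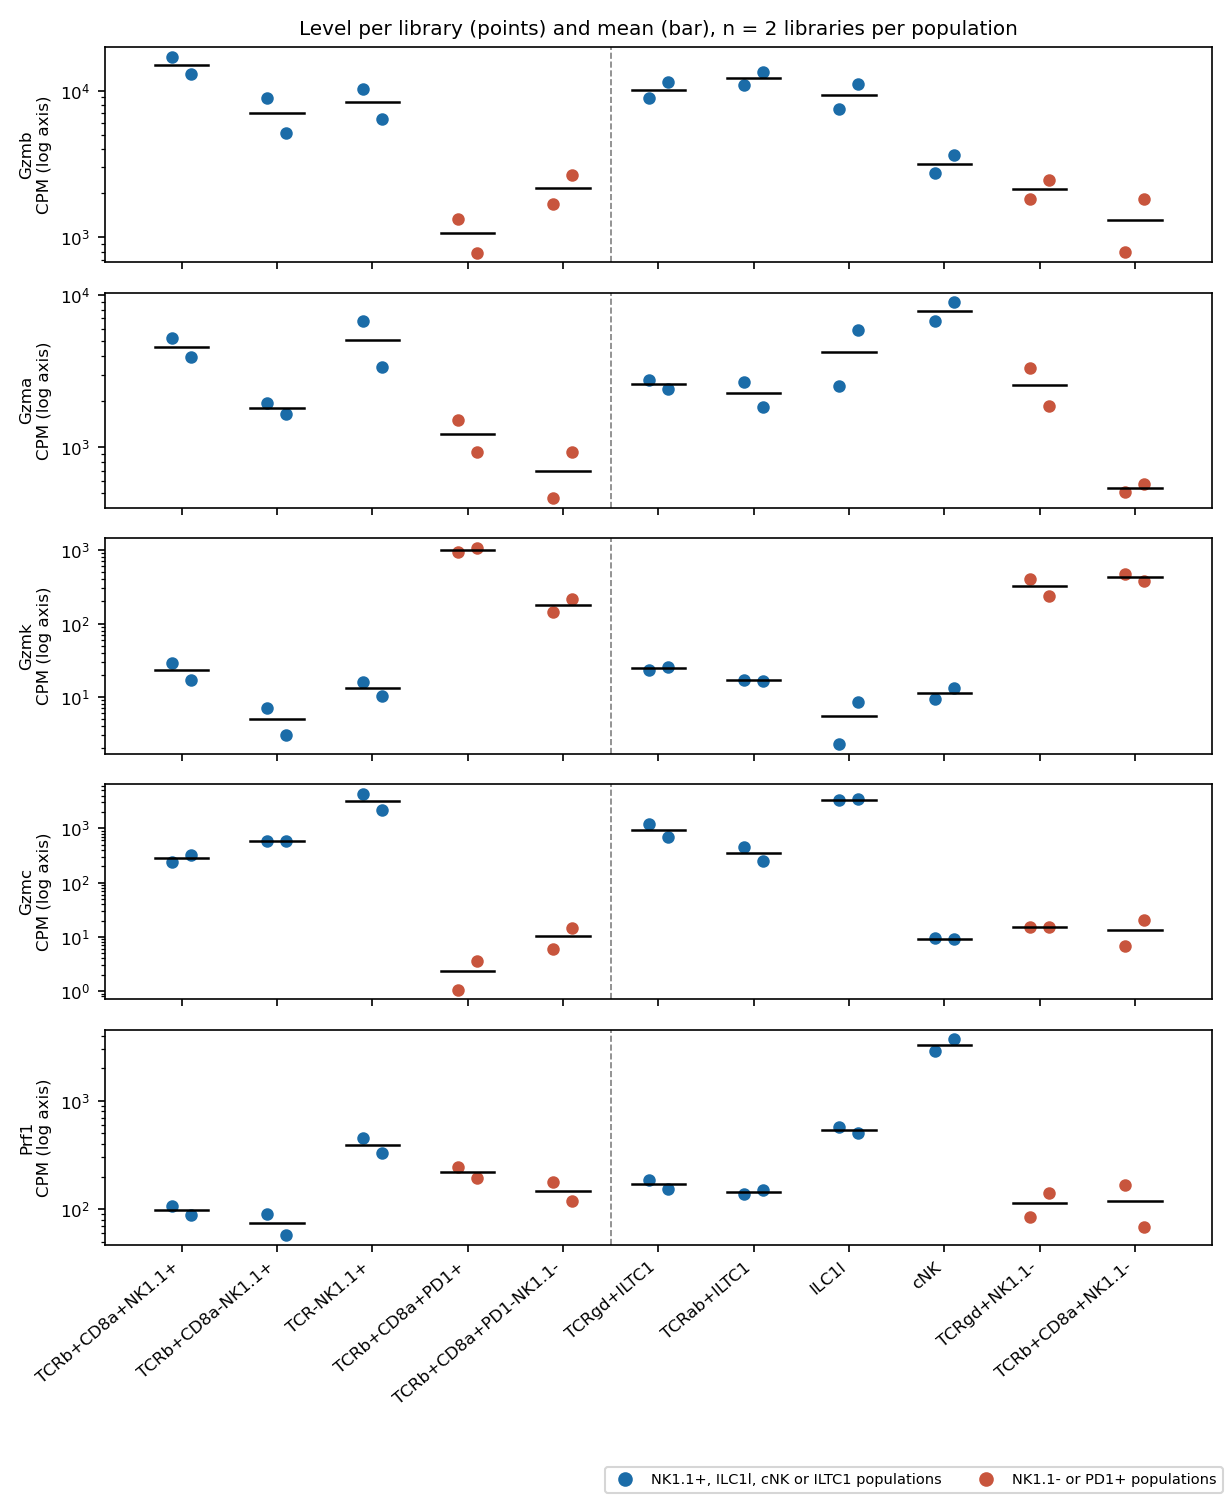
Level of Gzmb, Gzma, Gzmk, Gzmc and Prf1 in CPM on log axes, points for the 2 libraries of each population and a bar for their mean, the first gating scheme left of the dashed line. Gzmk and Gzmb run in opposite directions between blue and red populations, and cNK cells combine the highest Prf1 (2850.2 and 3685 CPM) with 9.38 and 9.17 CPM of Gzmc.

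Per kilobase of all annotated exons of a gene combined, the populations differed in make-up as well as in amount. These lengths exceed the transcripts used above for Gzma (1006 against 878 bases), Gzmk (1389 against 1028), Gzmm (1472 against 1287) and Prf1 (2584 against 1968). For Gzmb both are 1436 bases, so the shares and ratios below depend on the length chosen. In TCRb+CD8a+NK1.1+ cells Gzmb supplied 68.1% of the granzyme total and Gzma 29.5%. In ILC1l cells Gzmb supplied 44.5%, Gzma 27.5% and Gzmc 27.1%, and in TCR-NK1.1+ cells 40.4%, 33.9% and 24.5%. The ILC1l means hide a reversal, with Gzma at 21.7% and 33.4% and Gzmc at 32.4% and 21.9% in replicates 1 and 2. In cNK cells Gzma supplied 77.6% and Gzmb 22.1%. TCRb+CD8a+PD1+ cells had a different make-up, with 44.8% Gzma, 27.1% Gzmb and 27.8% Gzmk. Their replicates 1 and 2 had 29.9% and 24.3% Gzmb and 21.7% and 33.9% Gzmk. Gzmk was also a large part in TCRb+CD8a+NK1.1- cells, with 24.2% and 12.9%. Gzmf supplied 0.656% in TCR-NK1.1+ cells, and Gzmd, Gzme and Gzmg less. Within a library, Gzmb exceeded Prf1 per kilobase by a log2 of 0.79 and 0.83 in cNK cells, against 8.17 and 8.04 in TCRb+CD8a+NK1.1+ cells, the lowest and highest of the 11 populations. The log2 ratio of Gzmb to Gzmk per kilobase was 0.46 and -0.48 in TCRb+CD8a+PD1+ cells and 11.6 and 10.3 in ILC1l cells.

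**Figure D4:**
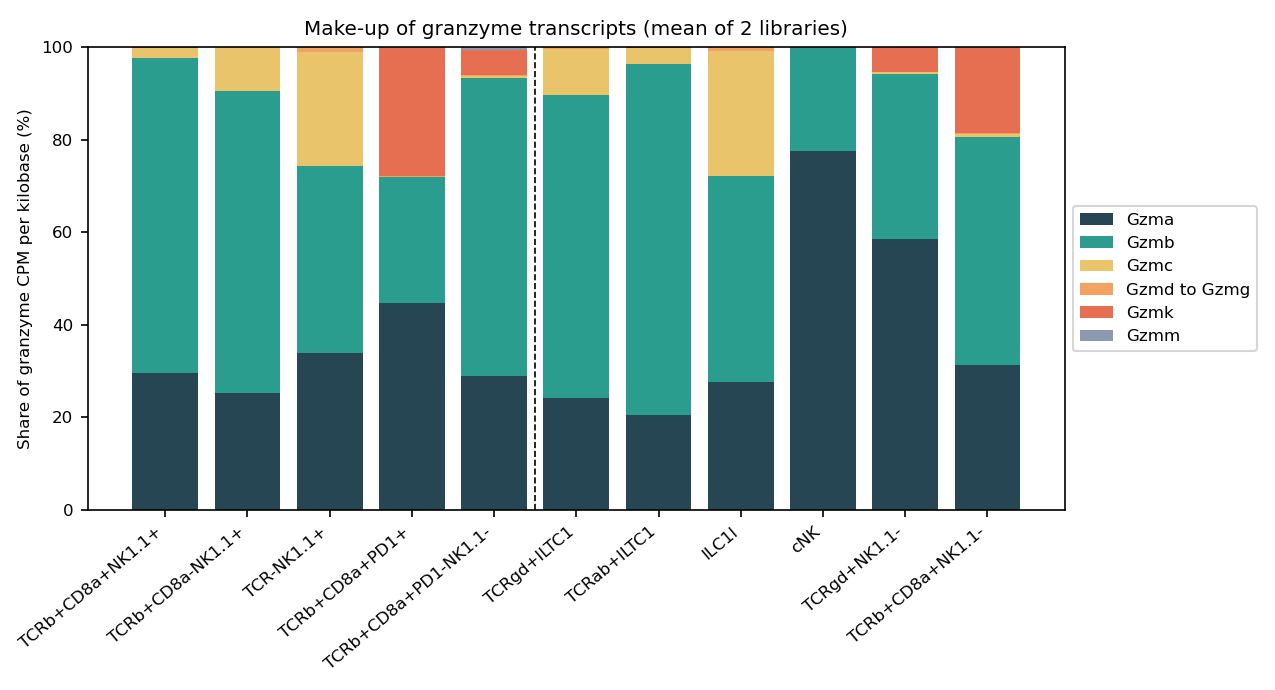
Share of each granzyme in the summed CPM per kilobase of combined exons of the 9 granzyme genes, in percent, as the mean of 2 libraries per population. Gzmc is a visible band in ILC1l (27.1%) and TCR-NK1.1+ cells (24.5%). Gzmk is one in TCRb+CD8a+PD1+ (27.8%) and TCRb+CD8a+NK1.1- cells (18.6%), and Gzma fills 77.6% of the bar of cNK cells.

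Population pairs were compared within each gating scheme. Differences are log2 fold changes ± SE, and a gene is called at an adjusted p under 0.05 (edgeR's quasi-likelihood test, Benjamini-Hochberg adjustment over 15727 genes in the first scheme and 16828 in the second). The labels do not state that the replicates are separate pools of animals, so p-values measure only the spread between these libraries. All 10 genes passed the filter on low counts in both schemes, Gzmd, Gzme and Gzmg through their TCR-NK1.1+ and ILC1l libraries.

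TCRb+CD8a+NK1.1+ cells had more Gzmb, Gzmc and Gzmf and less Gzmk than TCRb+CD8a+PD1+ cells. Of the 8 genes with counts in these libraries, 3 were called higher and 1 lower, where 2.11% of all tested genes were called. Gzmd had 1 count in these libraries and passed the filter on low counts through the TCR-NK1.1+ libraries, so no median over the 8 is given. Gzmb was higher by 3.82 ± 0.44 (adjusted p = 0.00209), 14.1-fold, and Gzmc by 6.99 ± 0.70 (adjusted p = 0.000944), 127-fold. Gzmf had 473 counts in TCRb+CD8a+NK1.1+ cells and 2 in TCRb+CD8a+PD1+ cells, a ratio of 268 with a 95% counting interval of 73.9 to 2222 (adjusted p = 0.00296). Gzmk was lower by -5.43 ± 0.51 (adjusted p = 0.00078), 43.2-fold. All 4 calls held when any 1 of the 4 libraries was left out. Gzma, at 1.90 ± 0.43 (adjusted p = 0.0621), Prf1, at -1.16 ± 0.34 (0.159), and Gzmm, at -2.06 ± 0.63 (0.194), were not called, although the libraries of the 2 populations did not overlap in any of the 3. The sum of Gzmc to Gzmg gave 7.05 ± 0.70 (adjusted p = 0.000886), close to Gzmc alone.

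Against TCRb+CD8a+PD1-NK1.1- cells, which bear neither marker, TCRb+CD8a+NK1.1+ cells were called higher in 4 and lower in 2 of 8 genes, where 1.78% of all tested genes were called. With Gzmd again at 1 count, no median over the 8 is given. Gzmc was higher by 4.80 ± 0.62 (adjusted p = 0.00559), 27.9-fold, and this call held whichever library was left out. Gzmb was higher by 2.80 ± 0.42 (adjusted p = 0.0109), Gzma by 2.70 ± 0.45 (0.0183) and Gzmf by 3.22 ± 0.67 (0.0450). Gzmk was lower by -2.95 ± 0.46 (adjusted p = 0.0130) and Gzmm by -3.51 ± 0.66 (0.0318). Without TCRb+CD8a+NK1.1+ replicate 1 only Gzmc of the 6 was called, with adjusted p of 0.0688 for Gzmb and Gzmk, 0.106 for Gzma, 0.215 for Gzmf and 0.313 for Gzmm. Without TCRb+CD8a+NK1.1+ replicate 2, Gzma (0.0605), Gzmf (0.156), Gzmk (0.145) and Gzmm (0.183) were not called. Without TCRb+CD8a+PD1-NK1.1- replicate 1, Gzma (0.124), Gzmb (0.0949), Gzmf (0.228) and Gzmm (0.192) were not called, and without its replicate 2, Gzmk (0.0558) and Gzmm (0.151). Gzmf (adjusted p = 0.392) and Gzmm (0.937) also lost their calls when all 22 libraries were fitted together, and Gzmf (0.0554) when the TCR-NK1.1+ and TCRb+CD8a-NK1.1+ libraries were left out of the fit. Prf1 differed by -0.60 ± 0.33 (adjusted p = 0.651).

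TCRb+CD8a+PD1+ and TCRb+CD8a+PD1-NK1.1- cells were not told apart by any of the 7 genes with counts, where 0.451% of all genes were called. Their median was -1.02, against 0.0 over all genes. At an unadjusted p under 0.05 there were 5 of the 7 and 1065 of all 15727 genes. DESeq2 called 3 of the 7 and 371 of all genes. Gzmk came closest, at 2.48 ± 0.45 (adjusted p = 0.0520), with 939.9 and 1062 CPM in TCRb+CD8a+PD1+ cells against 144 and 214 CPM in TCRb+CD8a+PD1-NK1.1- cells. Gzmb differed by -1.02 ± 0.39 (0.584), Gzmc by -2.19 ± 0.60 (0.275) and Gzmf by -4.68 ± 0.99 (0.0986). The 3 comparisons among CD8a+ populations share libraries, so their values are not independent.

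Among cells with NK1.1, TCRb+CD8a+NK1.1+ cells had less Gzmc and Prf1 than TCR-NK1.1+ cells. TCRb+CD8a+NK1.1+ cells were called lower in 3 of 10 genes and higher in 0, where 1.54% of all genes were called. One of the 3 was Gzmd, which passed the filter on low counts through the TCR-NK1.1+ libraries themselves, so its call adds no support. Gzmc was lower by -3.51 ± 0.58 (adjusted p = 0.0210) and Prf1 by -2.00 ± 0.34 (0.0240). Gzmd had 1 count in TCRb+CD8a+NK1.1+ libraries and 845 in TCR-NK1.1+ libraries, a ratio of 691 with a 95% counting interval of 124 to 27311 (adjusted p = 0.0269). Gzme had 0 counts in TCRb+CD8a+NK1.1+ cells and was at least 109-fold lower there (adjusted p = 0.0594). Gzmb, by contrast, differed by 0.85 ± 0.39 (adjusted p = 0.334). The 3 calls depended on single libraries. Without TCRb+CD8a+NK1.1+ replicate 1 or 2 none of the 3 was called (Gzmc 0.210 and 0.151, Gzmd 0.170 and 0.170, Prf1 0.184 and 0.221), and without TCR-NK1.1+ replicate 1 none was either (0.0908, 0.238 and 0.106). Without TCR-NK1.1+ replicate 2 Gzmd alone was lost (0.0563), as it was with all 22 libraries in 1 fit (0.0973). The epithelial markers summed to 5639 and 4339 CPM in TCR-NK1.1+ libraries, against 594.6 and 690.9 CPM in TCRb+CD8a+NK1.1+ libraries. Cdh1 made up 514.1 and 635.9 CPM of the TCRb+CD8a+NK1.1+ sums, against 237.6 and 596.1 CPM of the TCR-NK1.1+ sums. The part of these markers in the differences was not tested.

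TCRb+CD8a-NK1.1+ cells showed the same direction against TCR-NK1.1+ cells without a call. None of the 10 genes and 0% of all genes were called. Of the 10, 8 had an unadjusted p under 0.05, where 1345 of all 15727 genes did. DESeq2 called 5 of the 10 and 186 of all genes. These counts include Gzmd, Gzme and Gzmg, which passed the filter through TCR-NK1.1+ libraries. Prf1 differed by -2.36 ± 0.35 (adjusted p = 0.0837), Gzmf by -4.50 ± 0.69 (0.0911) and Gzmc by -2.45 ± 0.55 (0.257). Gzmd, with 0 counts against 845, was at least 263-fold lower (adjusted p = 0.0955). Both libraries of TCRb+CD8a-NK1.1+ lay below both of TCR-NK1.1+ in each of these 4 genes. Epithelial markers summed to 5455 and 1089 CPM in TCRb+CD8a-NK1.1+ libraries, against 5639 and 4339 CPM in TCR-NK1.1+ libraries. Cdh1 made up 694.2 and 773.6 CPM of the former and 237.6 and 596.1 CPM of the latter. The part of these markers in the differences was not tested.

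**Figure D5:**
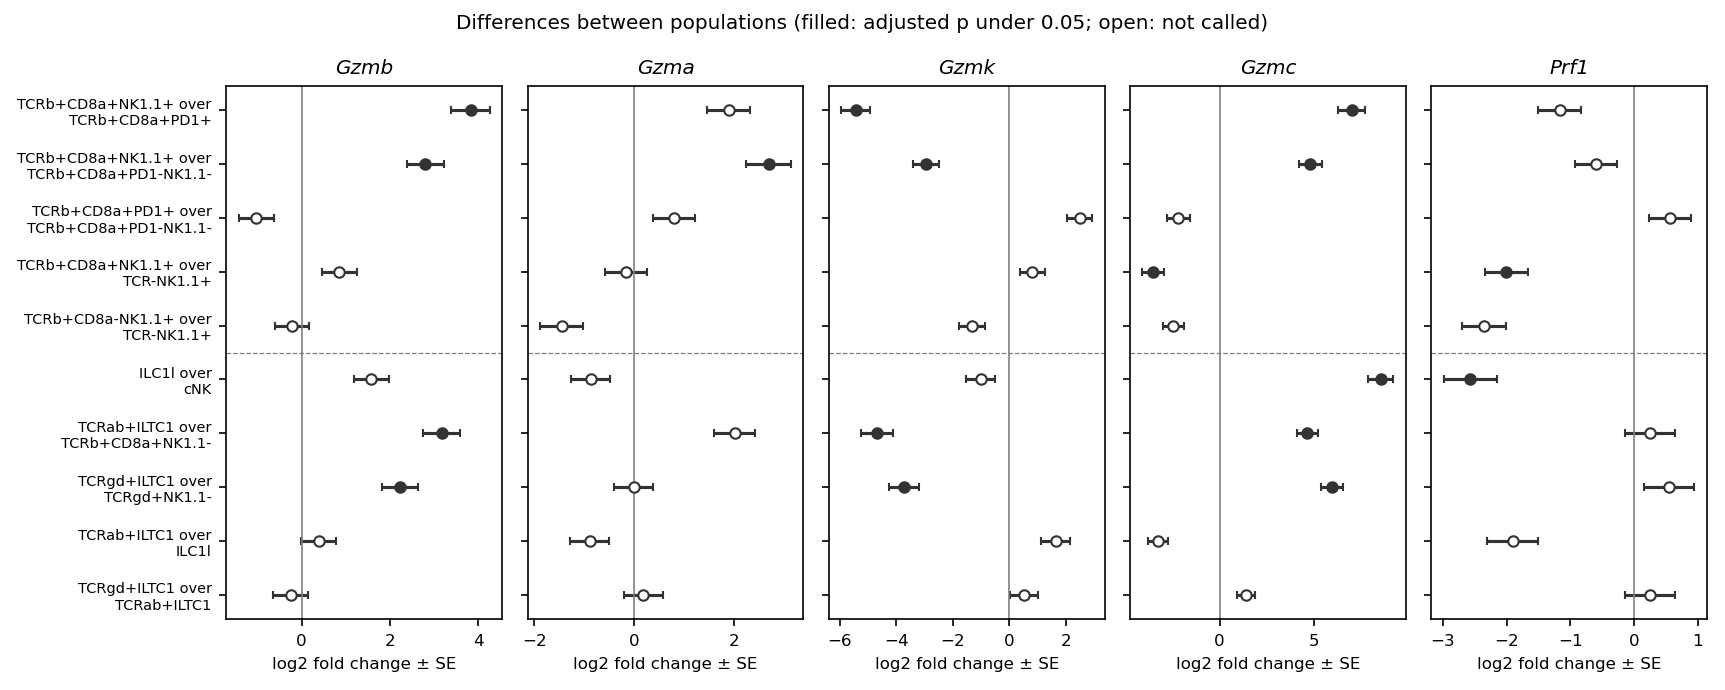
Log2 fold change ± SE of 5 genes in the 10 population pairs, the first-named population over the second, with filled points for adjusted p under 0.05 and open points for pairs not called. Gzmb and Gzmc are right of 0 and Gzmk left of 0 in all 4 pairs that set NK1.1+ or ILTC1 T cells against T cells without NK1.1, while Prf1 is called only in TCRb+CD8a+NK1.1+ over TCR-NK1.1+ and in ILC1l over cNK cells, both left of 0.

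The comparison of ILC1l with cNK cells, both natural killer-like cells from mammary tumours, gave Gzmc and Prf1 in opposite directions. Of 10 genes 1 was called higher and 1 lower, where 1.02% of all genes were called. Gzmd, Gzme and Gzmg passed the filter through the ILC1l libraries, so no median over the 10 is given. Gzmc was higher in ILC1l cells by 8.54 ± 0.66 (adjusted p = 0.000543), 372-fold, and held when any 1 library was left out. Prf1 was lower in ILC1l cells by -2.57 ± 0.42 (adjusted p = 0.0191), 5.95-fold, and lost its call without ILC1l replicate 1 (0.141) or 2 (0.206) and without cNK replicate 1 (0.0696) or 2 (0.116), always in the same direction. Gzmf had 1479 counts in ILC1l and 0 in cNK libraries and was at least 487-fold higher (adjusted p = 0.0781). Gzmd was at least 187-fold, Gzme at least 86.3-fold and Gzmg at least 34.9-fold higher, each bound with 3 counts over both cNK libraries, with adjusted p of 0.139, 0.238 and 0.412. Gzmb, at 1.57 ± 0.40 (adjusted p = 0.131), and Gzma, at -0.87 ± 0.40 (0.497), were not called. T-cell markers summed to 637 and 2352 CPM in ILC1l libraries, against 26.1 and 44.9 CPM in cNK libraries. Myeloid markers summed to 455.8 and 511.8 CPM in ILC1l libraries, against 1515 and 3742 CPM in cNK libraries. Itgam made up 938.1 and 837.6 CPM of the cNK sums and 58.4 and 63.1 CPM of the ILC1l sums. Cd74 had 367.6 and 1850 CPM in cNK libraries, against 225.3 and 269.7 CPM in ILC1l libraries, and Lyz2 4.87 and 78.8 CPM, against 3.55 and 8.03 CPM. B-cell markers summed to 728.0 and 760.8 CPM in ILC1l libraries, against 2087 and 1106 CPM in cNK libraries. The part of these transcripts in the differences was not tested, and a marker sum does not show which cells held them.

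TCRab+ILTC1 cells carried the same 3 changes against TCRb+CD8a+NK1.1- cells as NK1.1+ CD8a+ cells did in the first scheme, in other libraries. Of 10 genes 2 were called higher and 1 lower, where 0.523% of all genes were called. Gzmd, Gzme and Gzmg entered this fit through the ILC1l libraries, so no median over the 10 is given. Gzmb was higher by 3.17 ± 0.42 (adjusted p = 0.0228), 8.98-fold, Gzmc by 4.64 ± 0.55 (0.0155), 25.0-fold, and Gzmk lower by -4.69 ± 0.57 (0.0155), 25.8-fold. Gzma missed the threshold at 2.02 ± 0.41 (adjusted p = 0.0659), with 2693 and 1844 CPM in TCRab+ILTC1 cells against 511 and 578 CPM in TCRb+CD8a+NK1.1- cells. Without TCRab+ILTC1 replicate 2, Gzmb (0.0768) and Gzmk (0.113) were not called, and fitted on these 4 libraries alone none of the 3 was (0.183, 0.183 and 0.0820). Epithelial markers summed to 906 and 806 CPM in TCRab+ILTC1 libraries, against 2351 and 4162 CPM in TCRb+CD8a+NK1.1- libraries. Cdh1 made up 852.5 and 752.6 CPM of the former and 687.5 and 719.7 CPM of the latter. The part of these markers was not tested.

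TCRgd+ILTC1 cells differed from TCRgd+NK1.1- cells in the same genes. Of 10 genes 2 were called higher and 1 lower, where 1.59% of all genes were called. No median is given, again because of Gzmd, Gzme and Gzmg. Gzmc was higher by 5.94 ± 0.59 (adjusted p = 0.00511), 61.2-fold, in every fit that left out 1 library. Gzmb was higher by 2.22 ± 0.41 (adjusted p = 0.0333), 4.66-fold, and Gzmk lower by -3.72 ± 0.54 (0.0159), 13.2-fold. Without TCRgd+ILTC1 replicate 1 or 2, neither Gzmb (0.101 and 0.204) nor Gzmk (0.0982 and 0.160) was called, and Gzmb was not without TCRgd+NK1.1- replicate 1 (0.0578) or in the 4 libraries alone (0.0534). Gzmf had 738 counts against 0 and was at least 224-fold higher (adjusted p = 0.0710). Prf1 differed by 0.55 ± 0.40 (adjusted p = 0.500). Myeloid markers made up 19233 and 46625 CPM of the TCRgd+NK1.1- libraries, against 369.7 and 364.5 CPM of the TCRgd+ILTC1 libraries, and their part was not tested.

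The difference between the TCRab+ILTC1 and the TCRgd+ILTC1 comparison was itself tested. Gzma had the lowest adjusted p of the 10, with the TCRab+ILTC1 difference larger than the TCRgd+ILTC1 difference by 2.03 ± 0.56 (adjusted p = 0.340). Gzma was called in neither pair. The genes called in both pairs gave -1.29 ± 0.68 (0.633) for Gzmc, -0.97 ± 0.69 (0.769) for Gzmk and 0.95 ± 0.55 (0.677) for Gzmb. None of the 10 genes was called, where 0.0535% of all genes were called. An unadjusted p under 0.05 was found for 2 of the 10 and 1489 of all 16828 genes. DESeq2 called 2 of the 10 and 348 of all genes. TCRgd+ILTC1 and TCRab+ILTC1 cells were not told apart by any of the 10 genes either, where 0% of all genes were called. At an unadjusted p under 0.05 there were 2 of the 10 and 570 of all 16828 genes. DESeq2 called 0 of the 10 and 65 of all genes. Gzmc differed by 1.41 ± 0.48 (adjusted p = 1.0), and Gzmd had 61 counts in TCRgd+ILTC1 and 0 in TCRab+ILTC1 libraries, at least 26.4-fold (adjusted p = 1.0).

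TCRab+ILTC1 cells against ILC1l cells gave no call among the 10 genes, where 0% of all genes were called. T-cell markers summed to 8123 and 7653 CPM in TCRab+ILTC1 libraries, against 637 and 2352 CPM in ILC1l libraries, and their part was not tested. Of the 10, 6 genes had an unadjusted p under 0.05, where 1072 of all 16828 genes did. DESeq2 called 3 of the 10 and 199 of all genes, again with Gzmd, Gzme and Gzmg let in by the ILC1l libraries. Gzmc, at -3.27 ± 0.52 (adjusted p = 0.209), had 456 and 248 CPM in TCRab+ILTC1 cells against 3359.8 and 3409 CPM in ILC1l cells. Prf1 differed by -1.91 ± 0.41 (adjusted p = 0.460), and Gzmd, with 0 counts against 567, was at least 252-fold lower (0.586). Gzmb differed by 0.38 ± 0.39 (adjusted p = 0.835). Both TCRab+ILTC1 libraries lay below both ILC1l libraries in Gzmc, Gzmd and Prf1. Against cNK cells, which nearly lack T-cell transcripts, TCRab+ILTC1 cells had the higher Gzmc levels, 456 and 248 CPM against 9.38 and 9.17 CPM, a pair that was not tested.

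Genes that handle granzymes were taken as lists. Calls of list genes, here and in the paragraphs on serpins and other routes of killing, come from the main fit alone. Whether they hold without 1 library or in other fits was not tested. Of 20 genes of granule machinery 19 were tested, all but Vamp7. None was called in the 3 comparisons of CD8a+ populations (medians of -0.04, 0.51 and 0.33), in TCRb+CD8a+NK1.1+ or TCRb+CD8a-NK1.1+ over TCR-NK1.1+ cells (-0.05 and -0.21) or in ILC1l over cNK cells (-0.28). Ctsw, a protease gene of killer lymphocytes, was higher in TCRab+ILTC1 than in TCRb+CD8a+NK1.1- cells, with 2149 and 2401 CPM against 836 and 913 CPM (1.35 ± 0.24, adjusted p = 0.0454). It was also higher in TCRgd+ILTC1 than in TCRgd+NK1.1- cells, with 1976 and 2285 CPM against 513 and 744 CPM (1.73 ± 0.24, adjusted p = 0.0145). In that comparison Gnptab, needed for the mannose-6-phosphate tag of lysosomal enzymes, was higher by 1.74 ± 0.34 (0.0404) and Lamp1, a lysosome membrane protein also abundant in myeloid cells, lower by -2.76 ± 0.51 (0.0334). The granule list had 1 call of 19 genes in the TCRab+ILTC1 comparison, where 0.523% of all genes were called, and 3 in the TCRgd+ILTC1 comparison, where 1.59% were, with medians of 0.23 and 0.07.

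The 7 serpins tested are protease inhibitors, of which Serpinb9 blocks granzyme B. Serpinb9 had 1365 and 1292 CPM in cNK cells, the highest of any population, with 278 and 266 CPM in ILC1l cells, which were lower by -2.26 ± 0.34 (adjusted p = 0.0121). Its relative Serpinb9b had 2.61 and 3.77 CPM in ILC1l cells against 461 and 567 CPM in cNK cells (-7.30 ± 1.07, adjusted p = 0.0156), while Serpina3f (1.81 ± 0.28, 0.0156) and Serpina3g (1.45 ± 0.25, 0.0291) were higher in ILC1l cells, so 2 of 7 were called higher and 2 lower, where 1.02% of all genes were called, with a median of -1.09 against 0.033 over all genes. Serpinb6b was higher in TCRb+CD8a+NK1.1+ cells, with 340.2 and 345 CPM, than in TCRb+CD8a+PD1+ cells, with 163 and 150.1 CPM (1.14 ± 0.23, adjusted p = 0.0345), and Serpinb6a was lower, with 53.9 and 48.5 CPM against 161 and 171 CPM (-1.69 ± 0.28, 0.0115). Serpinb6b and Serpinb9 were both higher in TCRb+CD8a+NK1.1+ than in TCRb+CD8a+PD1-NK1.1- cells (1.64 ± 0.23 and 1.37 ± 0.25, adjusted p = 0.00952 and 0.0289). Serpinb6b (2.80 ± 0.30, 0.00703) and Serpinb9 (2.15 ± 0.34, 0.0211) were higher in TCRgd+ILTC1 than in TCRgd+NK1.1- cells, and Serpinb1a, an inhibitor of neutrophil proteases, was lower (-8.21 ± 1.27, 0.0211), with 1.98 and 0 CPM against 307 and 275 CPM. Serpinb6a was higher in TCRb+CD8a+PD1+ than in TCRb+CD8a+PD1-NK1.1- cells (1.65 ± 0.28, 0.0363). No serpin was called in the other comparisons.

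Other routes of killing were read from 6 genes. Tnfsf10, which encodes the death ligand TRAIL, had 429 and 399 CPM in ILC1l cells against 54.9 and 44.0 CPM in cNK cells (3.10 ± 0.30, adjusted p = 0.00149), opposite in direction to Prf1. It had 465 and 472 CPM in TCRgd+ILTC1 cells against 69.0 and 110.4 CPM in TCRgd+NK1.1- cells (2.35 ± 0.29, 0.00968), where Fasl was also higher (1.32 ± 0.24, 0.0334). Ifng, a cytokine gene, was lower in TCRb+CD8a+NK1.1+ than in TCRb+CD8a+PD1+ cells (-2.66 ± 0.34, 0.00417) and in ILC1l than in cNK cells (-2.36 ± 0.37, 0.0156). Of 12 transcription factor genes that act on granule genes, Eomes was lower in TCRb+CD8a+NK1.1+ cells, with 8.45 and 8.87 CPM, than in TCRb+CD8a+PD1+ (129 and 141 CPM), TCRb+CD8a+PD1-NK1.1- (46.6 and 52.0 CPM) and TCR-NK1.1+ cells (31.7 and 48.3 CPM), with differences of -3.95 ± 0.36 (0.00074), -2.50 ± 0.34 (0.00725) and -2.20 ± 0.33 (0.0187). Zfp683, known as Hobit, was higher than in TCRb+CD8a+PD1+ cells (2.54 ± 0.44, 0.0145) and Bhlhe40 lower (-1.42 ± 0.29, 0.0326). Bhlhe40 was higher in TCRb+CD8a+PD1+ than in TCRb+CD8a+PD1-NK1.1- cells (1.99 ± 0.29, 0.0205). Tbx21 (1.83 ± 0.37, 0.0448) and Stat4 (1.86 ± 0.24, 0.0120) were higher in TCRgd+ILTC1 than in TCRgd+NK1.1- cells. No factor gene was called in the other comparisons.

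The genes whose levels most resembled each member over the 11 population means, among 8540 genes with at least 20 CPM somewhere, were found by Pearson's r of log2(mean CPM + 1). Points of 1 scheme share sorts and depth, so r is a description. Gzmb was most like Rtn4rl1 (0.979), Smim24 (0.972) and Gyg (0.955), of which Gyg had 303 CPM in TCRb+CD8a+NK1.1+ cells and 105 in TCRb+CD8a+NK1.1- cells. Prf1 was most like Adamts14 (0.962), which had 207 CPM in cNK cells and 0 in TCRb+CD8a+NK1.1+ cells, Eya1 (0.949) and Khdc1b (0.944). Gzmk was most like Cd80 (0.937), the gene of a T-cell costimulatory ligand, Mcub (0.936) and Ube2l6 (0.930). Gzma was most like Snx18 (0.948), Stx7 (0.943) and Nfil3 (0.923), the gene of a transcription factor needed for natural killer cells. Gzmc was most like Phb2 (0.942), Alad (0.933) and Syngr2 (0.923). Gzmd was most like Upp1 (0.934), Ptgis (0.903) and Nutf2 (0.900), and Gzmf like Snrpa (0.912), Ptgis (0.898) and Akr1c13 (0.894). No member shared its nearest gene with another, and only Ptgis stood in the lists of 2 members.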

How the data were processed

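Lymphocytes from pooled tumours were sorted and their cDNA amplified by SMARTer, per the labels' protocols. BWA 0.7.5a, Picard and HTSeq are the tools and mm9 and NCBIM37 the builds, per the submitters' processing notes. No source used here gives strand or multi-mapping settings. The authors deposited raw counts, 1 per gene and library, for 22 libraries, grouped by sample title, and the spellings ILC1I and ILC1l were treated as 1 population. Symbols were matched to 32897 of 37620 entries (99.02% of counts) through GENCODE M21, which also gave exon lengths and transcripts. Promoters came from RefSeq.

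Counts were fitted in R 4.3.3 with edgeR 4.0.16 (TMM, filterByExpr, quasi-likelihood F test, 1 mean per population), 10 libraries in the first scheme and 12 in the second, with Benjamini-Hochberg adjusted p under 0.05 as the call. DESeq2 1.42.0, other scaling, no low-count filter, all 22 libraries together, the 4 libraries alone, a replicate block and leaving out each library were alternatives. Fits without the TCR-NK1.1+ and TCRb+CD8a-NK1.1+ libraries (first scheme) or the TCRgd+NK1.1- libraries (second scheme), for pairs that do not use them, were added after seeing the data. The procedure was tested on simulated data. Tables, alignments and figures used Python 3.11.15, pandas 2.3.3, Biopython 1.88 and matplotlib 3.10.9.

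Folds against 0 counts use 3 counts over the population's libraries. Bounds and counting intervals cover counting error only, since reads carry no molecular identifiers. Named genes were the 10 members, up to 2 called genes each way of largest change in each of 4 lists, and the 3 most alike genes of members reaching 20 CPM. The genes and lists were chosen with earlier results of these data known.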

Additional observations from a re-analysis of the deposited data

How the results depend on the processing

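Over 68 single-gene results and 737 alternative values, 614 kept direction and side of the threshold, 44 lost the call, 79 gained one and 0 changed direction. RLE scaling left every count of called members within 1.5 times its value. DESeq2 called 7 members for TCRb+CD8a+NK1.1+ over TCRb+CD8a+PD1+ cells (4 in edgeR), 3 for TCRb+CD8a+PD1+ over TCRb+CD8a+PD1-NK1.1-, 5 for TCRb+CD8a-NK1.1+ over TCR-NK1.1+, 6 for ILC1l over cNK, 3 for TCRab+ILTC1 over ILC1l and 2 for the difference between the ILTC1 comparisons. Without the filter on low counts, the calls were 4, 7, 6, 5 and 2 for the last 5 of these, 5 for TCRb+CD8a+NK1.1+ over TCR-NK1.1+ and 1 for TCRgd+ILTC1 over TCRab+ILTC1. With all 22 libraries in 1 fit, ILC1l over cNK had 4, and so it had without the TCRgd+NK1.1- libraries. In the 4 compared libraries alone there were 1 for TCRb+CD8a+PD1+ over TCRb+CD8a+PD1-NK1.1-, 6 for TCRb+CD8a+NK1.1+ over TCR-NK1.1+, 7 for ILC1l over cNK and 0 for TCRab+ILTC1 over TCRb+CD8a+NK1.1-. TCRb+CD8a+PD1+ over TCRb+CD8a+PD1-NK1.1- also had 1 without the TCR-NK1.1+ and TCRb+CD8a-NK1.1+ libraries. The cause of these changes was not tested.

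Leaving out 1 library gave 4 to 4 called members for TCRb+CD8a+NK1.1+ over TCRb+CD8a+PD1+, 1 to 4 over TCRb+CD8a+PD1-NK1.1- and 0 to 2 over TCR-NK1.1+. The range was 0 to 1 for TCRb+CD8a+PD1+ over TCRb+CD8a+PD1-NK1.1-, 0 to 4 for TCRb+CD8a-NK1.1+ over TCR-NK1.1+, 1 to 1 for ILC1l over cNK, 1 to 3 for each ILTC1 population over its NK1.1- population, 0 to 1 for TCRab+ILTC1 over ILC1l, and 0 to 0 for TCRgd+ILTC1 over TCRab+ILTC1 and for the difference. A population left with 1 library is assumed to vary like the others.

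Same-numbered libraries deviated together with r over 0.1 in 9 of 10 pairs of populations in the first scheme (0.0945 to 0.329) and in 2 of 15 in the second (-0.0237 to 0.131). As not every pair passed in either scheme, the numbers were not taken to pair the samples, although in the first scheme every r was above 0, a hint of shared handling from the data and not from the labels. With a replicate block, 1 member was called for TCRb+CD8a+PD1+ over TCRb+CD8a+PD1-NK1.1- (Gzmk, adjusted p = 0.0339) and 1 for TCRb+CD8a-NK1.1+ over TCR-NK1.1+ (Prf1, 0.0174; 16 of all genes), and 5 single-gene results gained a call and none lost one.

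Counts over all genes moved more: between edgeR and DESeq2 they were 332 and 829 for TCRb+CD8a+NK1.1+ over TCRb+CD8a+PD1+, 280 and 778 over TCRb+CD8a+PD1-NK1.1-, 242 and 1068 over TCR-NK1.1+, 171 and 829 for ILC1l over cNK, 88 and 1189 for TCRab+ILTC1 and 268 and 1700 for TCRgd+ILTC1 over their NK1.1- populations. Without 1 library they ranged from 116 to 170, 46 to 105, 3 to 137, 34 to 79, 11 to 840 and 7 to 804 in the same order, from 14 to 30 (71 with all) for TCRb+CD8a+PD1+ over TCRb+CD8a+PD1-NK1.1-, from 0 to 318 for TCRb+CD8a-NK1.1+ over TCR-NK1.1+, 0 to 324 for TCRab+ILTC1 over ILC1l, 0 to 297 for TCRgd+ILTC1 over TCRab+ILTC1 and 0 to 291 for the difference, so the shares of all genes called are as unsettled. With 2 libraries a population, depth limits Gzmd, Gzme and Gzmg outside TCR-NK1.1+ and ILC1l cells.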

Other observations

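Cma1, which encodes mast cell chymase, lies on the same strand of chromosome 14 as the granzyme cluster, 173.0 kb from Gzme. It had 388 and 510.2 CPM in cNK cells, 42.0 and 24.3 CPM in TCR-NK1.1+ cells and 0.844 and 1.52 CPM in ILC1l cells. No other library exceeded 1.68 CPM. ILC1l cells were lower than cNK cells by -8.53 ± 1.25 (log2 ± SE, edgeR adjusted p = 0.0157), the opposite direction to Gzmc. Of the 12 other mast cell and basophil markers, Kit had 96.0 and 107.3 unscaled CPM in the cNK libraries, against 128.8 and 94.9 in the ILC1l libraries, and each of the other 11 had at most 0.418 in the cNK libraries. The part of mast cells in the Cma1 values was not tested. Cma1 was singled out after its values were seen, and its call was not tested in other fits.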
